A study of Bos taurus with 19 samples.

Results

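The genes described here take part in the uptake of lipoproteins and in the lipolysis of their lipids, and were followed in the theca interna of bovine ovarian follicles. They were chosen by name, and their members are the probe sets whose single gene symbol in the platform annotation is LIPG, LPL, SCARB1, VLDLR, LRP1, APOE or ABCA1. Of these 7 genes, 4 were found, on 7 of the 24127 probe sets of the array: LPL, SCARB1 and APOE with 1 probe set each and VLDLR with 4. The annotation gave no probe set of that single symbol for the other 3, LIPG, LRP1 and ABCA1. LIPG is described through a probe set that the study's own gene table assigns to it, and LRP1 and ABCA1 are not reported here.

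Theca interna, the steroid-producing and vascular layer outside the follicular basal lamina, was dissected from follicles of non-pregnant Bos taurus heifers collected after slaughter, once the granulosa cells had been scraped away. RNA of each follicle was hybridised to a 1-colour Affymetrix Bovine Genome Array, giving 19 arrays in 4 groups: small healthy rounded (n = 5), small healthy columnar (n = 5), large healthy (n = 4) and small atretic (n = 5). Small follicles measured 3 to 5 mm and large follicles over 9 mm, rounded and columnar refer to the shape of the basal granulosa cells, and atretic follicles are those undergoing degeneration. The labels give no treatment, and nothing in them says that the follicles came from different animals. The p-values then measure the spread between these follicles, some of which may share an animal. By the labels, RNA was prepared with Trizol and RNeasy columns for large follicles, with the RNeasy mini kit for small healthy follicles and with the RNAqueous Micro kit for atretic follicles, and 0.25 µg was labelled for atretic follicles against 2 to 5 µg for the others. The study's methods instead describe a single preparation, Trizol followed by RNeasy columns with a smaller labelled amount, for its healthy follicles. As labelled, the RNA kit changes together with follicle health or size, and their effects cannot be told apart except that rounded and columnar follicles share a kit. For large against small healthy follicles the sources conflict on whether the preparation differed.

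Steroid-producing cells of the ovary make their hormones from cholesterol, part of which they draw from circulating lipoproteins. Lipoprotein lipase (LPL) and endothelial lipase (LIPG) are secreted enzymes that act at the vessel surface on the triglycerides and the phospholipids of lipoproteins, respectively. SCARB1, the scavenger receptor SR-BI, takes up cholesteryl esters selectively from high density lipoprotein, VLDLR binds triglyceride-rich particles that carry apolipoprotein E, and APOE is that ligand, made by macrophages as well as by liver and steroidogenic tissues.

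Values are log2 signals of each probe set as the authors normalised them, so that a difference of 1 is a 2-fold change. Levels of different probe sets are not set against each other. In each comparison, limma tested the probe sets whose log2 signal exceeded 3 in 50% or more of the follicles of any 1 type, and a probe set passed at a Benjamini-Hochberg adjusted p under 0.05 over all probe sets tested. The tissue label was checked with marker lists. All 8 steroidogenic theca markers were detected, and their mean log2 signal lay between 6.67 and 9.51 on the 19 arrays. Markers of adipocytes, a cell type rich in LPL, lay between 1.3 and 2.6 for the 5 of 6 markers named on the array, below the detection level on every array. Of the granulosa cell genes, FSHR stayed below 3 in all groups and FOXL2 did not exceed 3, while CYP19A1 reached 3.9 in the columnar and 5.8 in the large group. INHA, INHBA, AMH, FST, HSD17B1 and SERPINE2 lay above 3 on every array, the lowest value being 3.6, for AMH in the atretic group. The study had considered a large sample with high levels of granulosa cell genes contaminated and left it out. The mean of the granulosa cell list was highest in large replicate 2 (8.80) and columnar replicate 1 (8.17), against 5.80 to 7.87 on the other arrays.

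Of the genes read through the annotation, 1 differed between groups by the test. APOE was higher in the theca of atretic follicles than in that of small healthy follicles, by 1.35 on the log2 scale, a 2.55-fold change. The LIPG probe set lay 1.13 lower in the same comparison, a 2.19-fold change. The study had selected that probe set on arrays that include these small healthy ones, so its fall is not an independent result. LPL, SCARB1 and VLDLR did not pass in any of the 4 comparisons, although their intervals leave room for differences of different sizes, given with each gene.

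**Figure D1:**
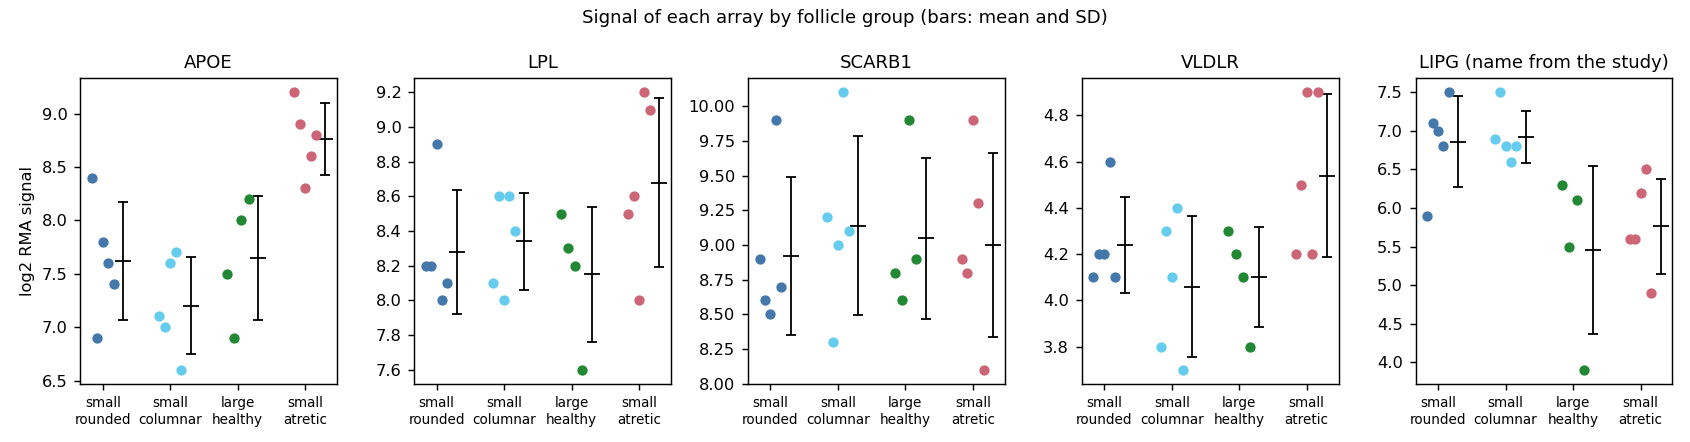
Log2 RMA signal (vertical axis) of 5 probe sets on the 19 arrays, in the 4 follicle groups (horizontal axis). Each point is 1 array, and the bars give the mean and SD of each group. The vertical scale differs between panels. The 5 atretic arrays lie between 8.3 and 9.2 for APOE, and the groups overlap for LPL and SCARB1.

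LPL was read by 1 probe set. Its log2 signal was 8.2, 8.2, 8.9, 8.0 and 8.1 on the rounded arrays 1 to 5 and 8.1, 8.6, 8.0, 8.6 and 8.4 on the columnar arrays. It was 8.5, 8.3, 8.2 and 7.6 in the large follicles and 8.5, 8.6, 8.0, 9.2 and 9.1 in the atretic follicles. The 4 groups overlapped, with the lowest array in the large group and the 2 highest in the atretic group. Large follicles had a mean of 8.15 ± 0.39 (SD, n = 4) and small healthy follicles one of 8.31 ± 0.30 (SD, n = 10), a difference of -0.16 with a 95% interval from -0.54 to 0.22 and an adjusted p of 0.604 by limma. Rounded and columnar follicles differed by -0.06, with an interval from -0.49 to 0.37.

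Atretic follicles had a mean LPL signal of 8.68 ± 0.49 (SD, n = 5), which was 0.37 above that of the small healthy follicles. The interval ran from -0.03 to 0.77, the adjusted p of limma was 0.135 and the two-sided exact permutation p was 0.104, so the difference did not pass. This result rested in part on atretic replicate 3, the array at 8.0: without it the difference was 0.54 with a limma adjusted p of 0.0309, and over all alternatives tried the adjusted p lay between 0.0309 and 0.343. Against large follicles the atretic mean was 0.53 higher, with an interval from -0.06 to 1.12 and a limma adjusted p of 0.318.

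The probe set that the study's table names LIPG has no symbol in the platform annotation. Its log2 signal was 5.9, 7.1, 7.0, 6.8 and 7.5 on the rounded arrays and 6.9, 7.5, 6.8, 6.6 and 6.8 on the columnar arrays. It was 6.3, 5.5, 6.1 and 3.9 in the large follicles and 5.6, 5.6, 6.2, 6.5 and 4.9 in the atretic follicles. Small healthy follicles were the high groups, although rounded replicate 1 lay among the large and atretic arrays. Because the study selected this probe set on large against small follicles of these arrays, that contrast is a description only. The large mean was 5.45 ± 1.09 (SD, n = 4) and the small healthy mean 6.89 ± 0.46 (SD, n = 10), a difference of -1.44, or of -0.92 without large replicate 4, the array at 3.9. Of the 4 large arrays, 2 lay below every small healthy array.

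In atretic follicles the LIPG signal averaged 5.76 ± 0.62 (SD, n = 5), 1.13 below small healthy follicles, with a 95% interval from -1.67 to -0.59. The limma adjusted p was 0.00635 and the exact permutation p 0.00233, and 3 of the 5 atretic arrays lay below every small healthy array. The 10 small healthy arrays of this test are among those on which the probe set was selected. The test is therefore not independent of that choice, which favours a fall. Against the rounded follicles alone the difference was -1.10 with a limma adjusted p of 0.0853, in a range from 0.00151 to 0.0853 over the alternatives tried. The atretic mean minus the large mean was 0.31, given without a test, and turned to -0.21 without large replicate 4. Rounded and columnar follicles differed by -0.06, with an interval from -0.91 to 0.79 and a limma adjusted p of 0.996.

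SCARB1 was read by 1 probe set. Its log2 signal was 8.9, 8.6, 8.5, 9.9 and 8.7 on the rounded arrays and 9.2, 8.3, 9.0, 10.1 and 9.1 on the columnar arrays. It was 8.8, 8.6, 9.9 and 8.9 in the large follicles and 8.9, 8.8, 9.9, 9.3 and 8.1 in the atretic follicles. In each group 1 array reached 9.9 or more, and the rest of every group lay between 8.1 and 9.3. The group means were 8.92 ± 0.57 for rounded (SD, n = 5), 9.14 ± 0.64 for columnar (SD, n = 5), 9.05 ± 0.58 for large (SD, n = 4) and 9.00 ± 0.66 for atretic follicles (SD, n = 5). No neighbours in this order differed beyond their spread. Large and small healthy follicles differed by 0.02, with an interval from -0.64 to 0.68 and a limma adjusted p of 0.976. Atretic and small healthy follicles differed by -0.03, with an interval from -0.67 to 0.61 and a limma adjusted p of 0.945. Both differences changed sign under some alternatives, and neither interval reaches 1.

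The variation of SCARB1 lay between follicles of the same group. Its pooled SD within groups was 0.61, larger than that of 95.9% of the 15722 probe sets detected in at least 1 follicle type, for which the median was 0.22. The same SD was 0.38 for LPL (84.6% of probe sets were lower), 0.49 for APOE (91.9%), 0.28 for the brightest VLDLR probe set (66.8%) and 0.71 for the LIPG probe set (97.4%).

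VLDLR had 4 probe sets, and they did not read alike. The brightest gave a signal of 3.7 to 4.9 over the 19 arrays, and the next 2.8 to 3.4, around the detection level. The other two gave 1.7 to 2.1 and 0.8 to 1.0 and were not tested, being below the detection level on every array. Over the 19 arrays the pair that was tested had a Pearson r of 0.06 between its signals. The spread of the second of them, an SD of 0.16 within groups, was close to the step of 0.1 in which the values were deposited.

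**Figure D2:**
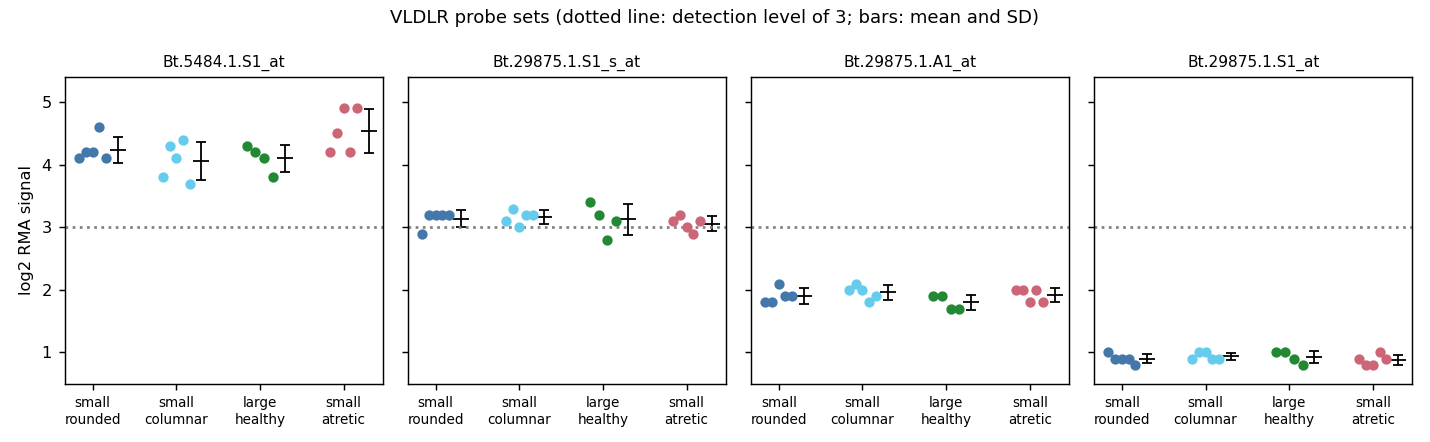
Log2 RMA signal (vertical axis) of the 4 VLDLR probe sets on the 19 arrays, in the 4 follicle groups (horizontal axis). Each point is 1 array, bars give the mean and SD, and the dotted line marks the detection level of 3. One probe set lies above 3 on every array, 1 lies around it and 2 lie below it.

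On the brightest of these probe sets the log2 signal of VLDLR was 4.1, 4.2, 4.2, 4.6 and 4.1 on the rounded arrays and 3.8, 4.3, 4.1, 4.4 and 3.7 on the columnar arrays. It was 4.3, 4.2, 4.1 and 3.8 in the large follicles and 4.2, 4.5, 4.9, 4.2 and 4.9 in the atretic follicles. The 2 highest arrays were atretic, and the other atretic arrays lay within the range of the small healthy ones. Large and small healthy follicles differed by -0.05, with an interval from -0.36 to 0.26 and a limma adjusted p of 0.849. Rounded follicles lay 0.18 above columnar ones, with an interval from -0.14 to 0.50 and a limma adjusted p of 0.996.

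Atretic follicles averaged 4.54 ± 0.35 for this VLDLR probe set (SD, n = 5) and small healthy follicles 4.15 ± 0.26 (SD, n = 10). The difference of 0.39 had an interval from 0.07 to 0.71, an exact permutation p of 0.0410 and a limma adjusted p of 0.0587, just outside the threshold. It passed when rounded replicate 4 (0.44, adjusted p 0.0332), columnar replicate 4 (0.42, adjusted p 0.0486), atretic replicate 1 (0.47, adjusted p 0.0452) or atretic replicate 4 (0.48, adjusted p 0.0387) was left out of the limma fit, in a range from 0.0332 to 0.262 over the alternatives. Against large follicles the difference was 0.44, with a limma adjusted p of 0.253. On the other tested probe set, atretic and small healthy follicles differed by -0.09 with a limma adjusted p of 0.358, so the direction seen on the brightest VLDLR probe set was not seen on it.

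APOE was read by 1 probe set. Its log2 signal was 8.4, 6.9, 7.8, 7.6 and 7.4 on the rounded arrays and 7.1, 7.0, 7.6, 7.7 and 6.6 on the columnar arrays. It was 7.5, 6.9, 8.0 and 8.2 in the large follicles and 9.2, 8.9, 8.3, 8.6 and 8.8 in the atretic follicles. All atretic arrays lay at 8.3 or above, and the one healthy array in that range was rounded replicate 1. The mean was 7.62 ± 0.55 for rounded (SD, n = 5), 7.20 ± 0.45 for columnar (SD, n = 5), 7.65 ± 0.58 for large (SD, n = 4) and 8.76 ± 0.34 for atretic follicles (SD, n = 5).

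Atretic follicles had 1.35 more APOE signal on the log2 scale than small healthy follicles, with an SE of 0.24 and a 95% interval from 0.85 to 1.85. The limma adjusted p was 0.00201 and the exact permutation p 6.66e-04, and 4 of the 5 atretic arrays lay above every small healthy array. APOE was the 1 of 5 tested member probe sets to pass, in a comparison in which 31.9% of the 15470 probe sets passed and 3.63% passed with at least a 2-fold change, as APOE did. By p-value it ranked 249 among them. Against the rounded follicles alone the difference was 1.14 and the limma adjusted p 0.0520, the highest of the alternatives tried, which began at 5.19e-04; against the columnar follicles alone it was 1.56 with a limma adjusted p of 0.00259.

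The direct comparison of atretic with large follicles gave a difference in APOE of 1.11, a 2.16-fold change, with a 95% interval from 0.51 to 1.71. All 5 atretic arrays lay above all 4 large arrays, which gives an exact permutation p of 0.00794, the smallest that this design allows. The limma adjusted p was 0.141, in a range from 0.0661 to 0.367 over the alternatives, so the difference did not pass over all probe sets. In this comparison 0% of 15326 probe sets passed by limma, at either fold, while 2763 had an unadjusted p under 0.05, and 122 passed when all 4 groups entered 1 fit. The mean of the array's poly-A control probe sets differed by -1.10 (atretic minus large), with the same exact permutation p of 0.00794. Adjusted over the 28 tests of marker and control lists it was 0.0445. The part of this shift in the APOE difference was not tested. Large and small healthy follicles differed in APOE by 0.24, with an interval from -0.37 to 0.85 and a limma adjusted p of 0.628. That value ranged from 0.06 without large replicate 4 to 0.49 without large replicate 2, and was 0.03 against rounded and 0.45 against columnar follicles alone. Rounded follicles lay 0.42 above columnar ones, with an interval from -0.22 to 1.06 and a limma adjusted p of 0.996, or 0.23 above without rounded replicate 1 and 0.27 without columnar replicate 5. The comparisons of atretic follicles share the atretic arrays, and those with small healthy follicles share the small arrays.

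Some markers of other cell types also passed in atretic against small healthy follicles, where 31.9% of all probe sets tested passed. Macrophage markers were among them. Of 12 listed markers 9 were named on the array, and all 9 rose in atretic against small healthy follicles, with a median difference of 1.42. CD68, a lysosomal macrophage protein, rose by 2.70, CD14, the co-receptor for bacterial lipopolysaccharide, by 2.24, and CSF1R, the receptor of the macrophage growth factor, by 0.94 (limma adjusted p of 0.00187, 0.00171 and 0.00206). The mean log2 signal of the 9 markers ran from 4.78 to 5.81 on the rounded, 4.34 to 5.36 on the columnar, 5.30 to 6.04 on the large and 5.78 to 7.23 on the atretic arrays. Its difference between atretic and small healthy follicles was 1.53, with an exact permutation p of 6.66e-04 and 0.0140 after adjustment over 28 such tests. The rounded array with the highest APOE signal, replicate 1, also had the highest macrophage mean of the small healthy arrays. Not every array followed that order. Large replicate 1 had the highest healthy macrophage mean (6.04) with an APOE signal of 7.5. Rounded replicate 5 and atretic replicate 2 had macrophage means of 5.62 and 6.08 with APOE signals of 7.4 and 8.9. In bulk tissue, more cells of a type and more RNA per cell cannot be told apart, and the part of macrophages in the APOE difference was not tested. CYP11A1, the enzyme that cleaves the cholesterol side chain, fell by 1.31 in atretic follicles (limma adjusted p 0.00529), the 1 of 8 steroidogenic markers to pass, and the granulosa cell genes INHBA and AMH fell by 1.47 and 0.97 (limma adjusted p 0.00962 and 0.0187).

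Some markers of vessels and stroma also passed between atretic and small healthy follicles, where 31.9% of all 15470 probe sets tested passed. The remaining macrophage markers AIF1, C1QA, C1QB, C1QC, CTSS and TYROBP rose by 1.14, 1.35, 1.42, 1.47, 0.69 and 1.78. Of 7 smooth muscle and pericyte markers 3 rose, the contractile proteins MYH11 by 1.12, DES by 0.76 and LMOD1 by 0.47 (limma adjusted p 0.0167, 0.0288 and 0.0154). Of 7 fibroblast markers 2 rose, the growth factor receptor PDGFRA and the matrix protein FBLN1, each by 0.81 (limma adjusted p 0.0123 and 0.00875), and of 8 endothelial markers 1 rose, the tight junction protein CLDN5, by 1.32 (limma adjusted p 0.00316). The mean of the fibroblast list ran from 9.57 to 10.10 on the rounded, 9.66 to 9.80 on the columnar and 9.84 to 10.21 on the atretic arrays, a difference of 0.26 with an exact permutation p of 0.0107, or 0.0499 adjusted over the 28 tests. The means of the smooth muscle and endothelial lists differed by 0.45 and 0.29 (exact permutation p 0.0593 and 0.0759). Adjusted over the 28 tests these were 0.162 and 0.177, so neither passed. The part of these cell types in the differences of APOE, LIPG and the lists given further on was not tested.

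**Figure D3:**
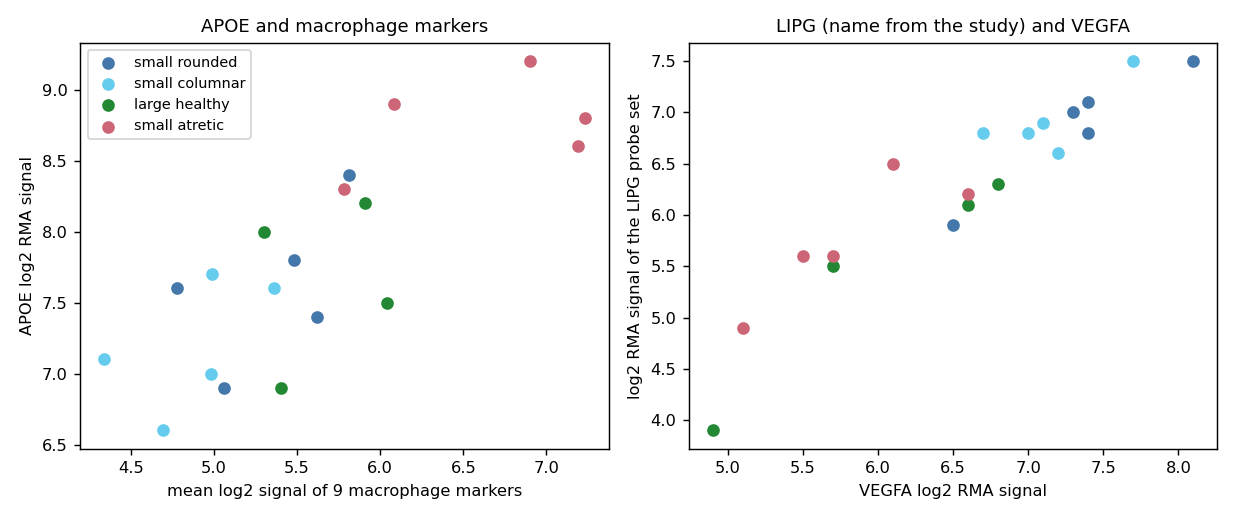
Left, APOE log2 RMA signal against the mean log2 signal of 9 macrophage markers. Right, log2 signal of the LIPG probe set against that of VEGFA, with 1 point per array (19 arrays) coloured by follicle group in both panels. Atretic arrays occupy the upper right of the left panel, from 5.78 to 7.23 on the horizontal axis, and both axes of the right panel are lowest in large replicate 4.

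Follicle size and granulosa cell shape, the contrasts of healthy follicles, moved none of the member probe sets of the annotation past the test. Between large and small healthy follicles 0 of 5 tested member probe sets passed, where 3.58% of 15570 probe sets passed and 0.706% passed with at least a 2-fold change. Between rounded and columnar follicles 0 of 5 passed, as did 0% of all probe sets at either fold, while 360 had an unadjusted p under 0.05. None of the 5 had an unadjusted p under 0.05 in either contrast. The array's poly-A control probe sets averaged 1.31 higher on large than on small healthy arrays (exact permutation p 9.99e-04, the smallest the design allows), and endothelial and smooth muscle markers averaged 0.52 and 0.74 higher (exact permutation p 0.00300 and 0.00500), values whose part in any difference by size was not tested. Of single markers, the smooth muscle genes DES and LMOD1 rose by 1.25 and 0.72, the collagens COL1A1 and COL1A2 by 0.76 and 0.40 and the macrophage gene AIF1 by 0.68 in large follicles, and AMH fell by 0.66 (limma adjusted p 0.0187, 0.0111, 0.0142, 0.0467, 0.0490 and 0.0332). The half-width of the 95% interval had a median over all tested probe sets of 0.27 for large against small healthy, 0.29 for rounded against columnar, 0.24 for atretic against small healthy and 0.30 for atretic against large follicles.

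**Figure D4:**
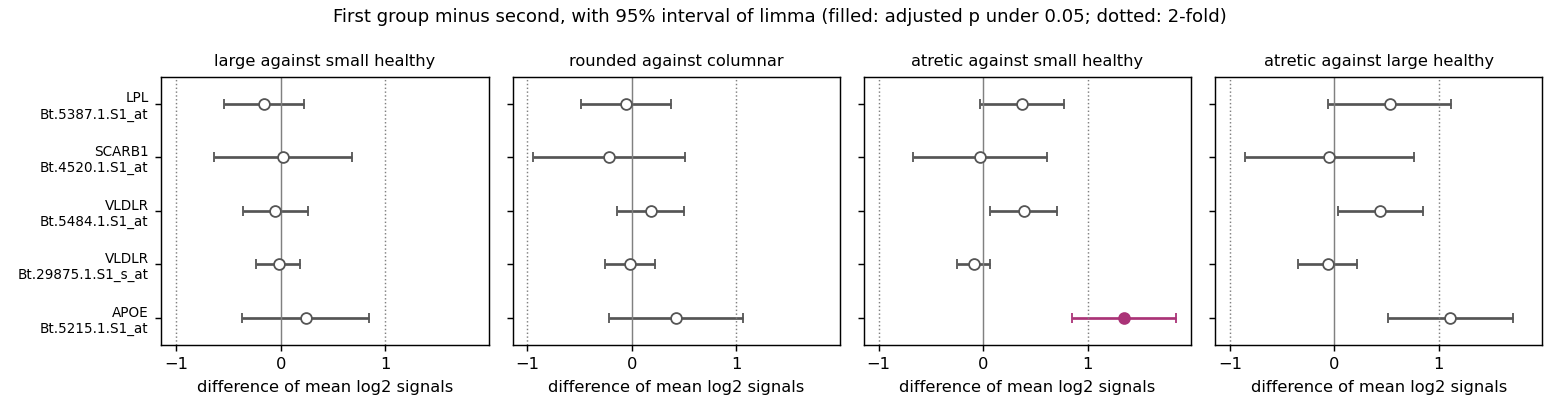
Difference of mean log2 signals (horizontal axis, first group minus second) for the 5 tested member probe sets (vertical axis) in the 4 comparisons, with the 95% interval of limma. Filled points have an adjusted p under 0.05, and dotted lines mark a 2-fold change. APOE in atretic against small healthy follicles is the 1 filled point.

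The members did not move as a block from array to array. Over the 19 arrays, Pearson's r between LPL and SCARB1 was -0.31, between LPL and APOE 0.29, between SCARB1 and APOE 0.05, between VLDLR and APOE 0.43 and between APOE and LIPG -0.57. With the group means removed these became -0.35, -0.08, 0.18, -0.10 and -0.51. The arrays share a platform and a normalisation, and the values are descriptions without a test.

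Named genes with the most similar pattern to each member were found by Pearson's r over the 19 arrays among the detected genes with 1 symbol. For SCARB1 these were TM7SF2 (r = 0.90), PMVK (0.89) and PLXDC1 (0.88), and the values were 0.90, 0.91 and 0.88 with the group means removed. For APOE they were RETREG2 (0.97), CEP95 (0.96) and CTSF (0.95), which became 0.91, 0.89 and 0.87. For the LIPG probe set they were VEGFA (0.94), PABIR2 (0.89) and FOXS1 (0.88), which became 0.92, 0.75 and 0.74. The likenesses of SCARB1 therefore lay between follicles of the same group as much as between all arrays. LPL was most like BOC (0.81), TRRAP (0.81) and R3HDM4 (0.79), which became 0.80, 0.76 and 0.77. The brightest VLDLR probe set was most like PIGT (0.78), ASB5 (0.77) and ANKH (0.77), which became 0.70, 0.61 and 0.62. All these values were picked as the highest among 9726 to 9728 candidate probe sets per member, and are descriptions without a test.

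VEGFA, the vascular endothelial growth factor, had a log2 signal of 6.5, 7.4, 7.3, 7.4 and 8.1 on the rounded and 7.1, 7.7, 7.0, 7.2 and 6.7 on the columnar arrays. It was 6.8, 5.7, 6.6 and 4.9 on the large arrays and 5.5, 5.7, 6.6, 6.1 and 5.1 on the atretic arrays. As for the LIPG probe set, rounded replicate 1 was the lowest small healthy array and large replicate 4 the lowest array of all.

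Other genes of lipoprotein and sterol handling were read from 6 lists of 74 genes in all, of which 59 had a named probe set. The lists were chosen with earlier results of these data known, so their counts are descriptions and not an independent test. In atretic against small healthy follicles 43 were tested, 17 rose and 3 fell, with a median difference of 0.21 against 0.01 over all probe sets tested, of which 31.9% passed. Against the rounded follicles alone, 2 rose and 0 fell. In large against small healthy follicles 2 of 44 rose and 1 fell, where 3.58% of all probe sets passed, and 0 passed between rounded and columnar or between atretic and large follicles.

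**Figure D5:**
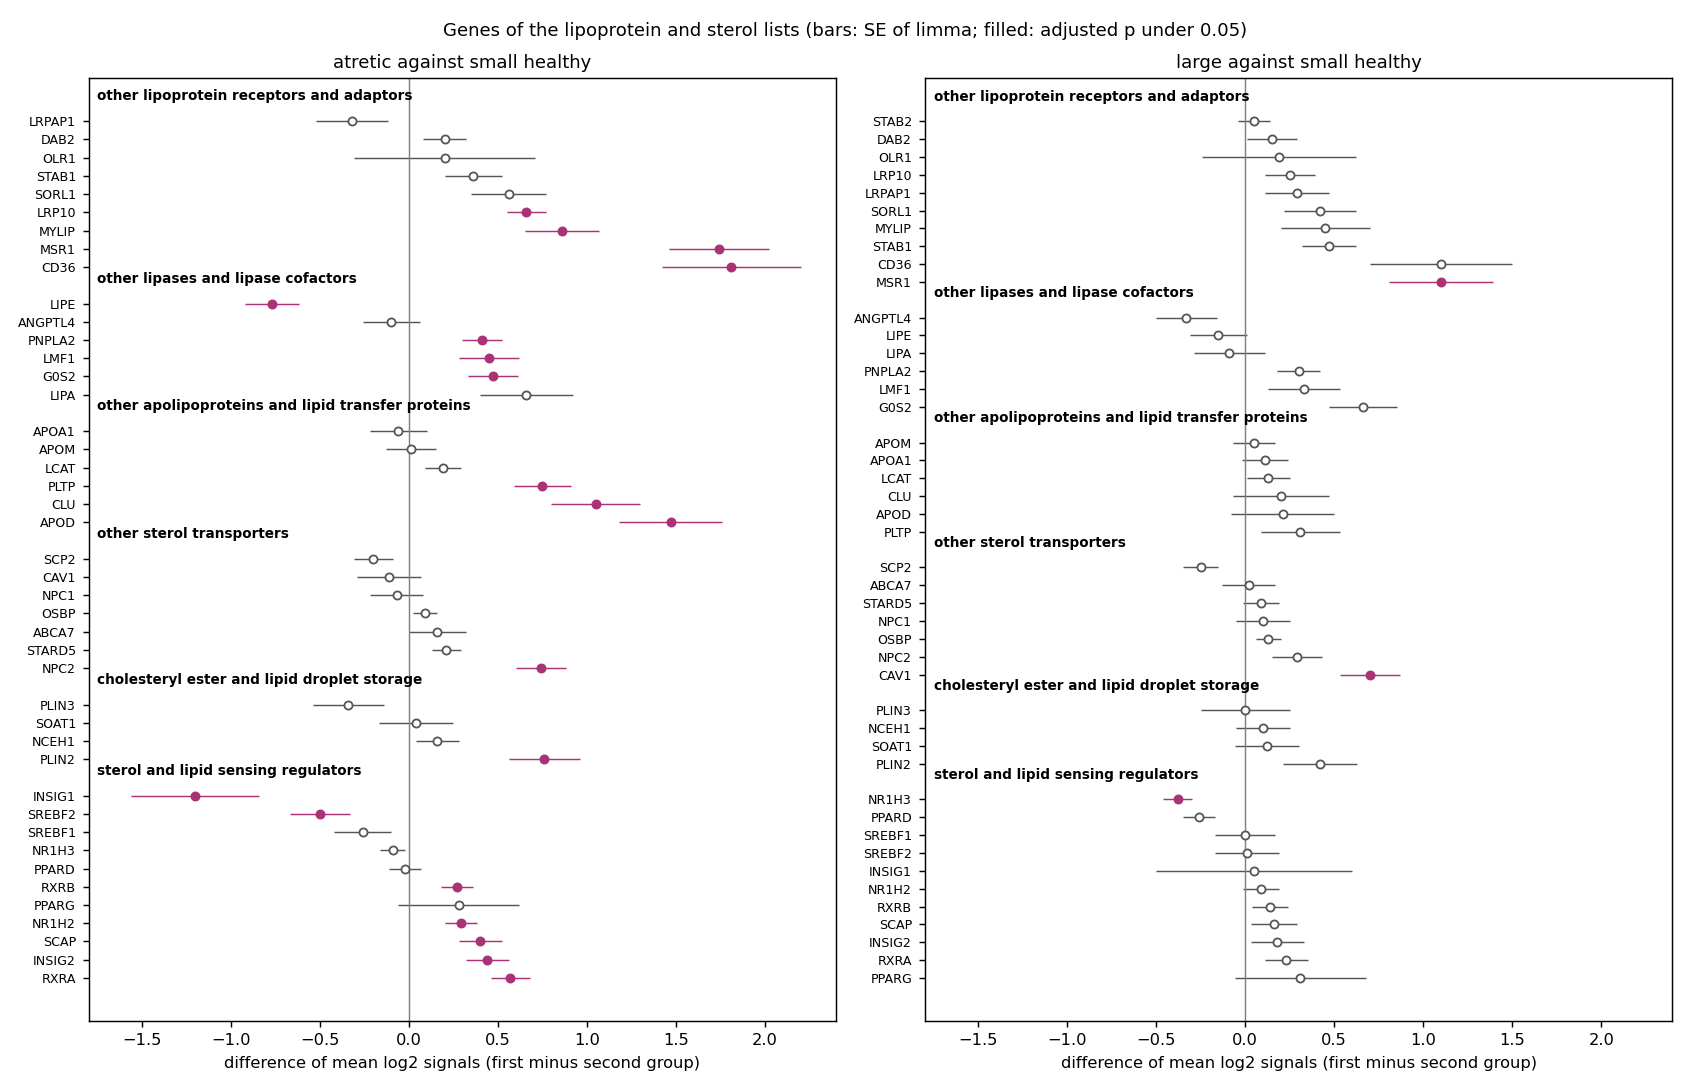
Difference of mean log2 signals (horizontal axis, with the SE of limma) for the tested genes of 6 lipoprotein and sterol lists (vertical axis), in atretic against small healthy follicles (left) and large against small healthy follicles (right). Filled points have an adjusted p under 0.05. On the left 17 filled points lie above 0 and 3 below, and on the right 2 lie above and 1 below.

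Among 9 tested lipoprotein receptors and adaptors 4 rose in atretic follicles and 0 fell, with a median difference of 0.56. Over all probe sets tested, 31.9% passed in this comparison. CD36, the scavenger receptor for oxidised lipoproteins and fatty acids, was 7.8, 9.0, 7.2, 6.8 and 8.0 on the atretic arrays and averaged 5.95 ± 0.78 in small healthy follicles (SD, n = 10), a difference of 1.81 (SE 0.39, limma adjusted p 0.00529). MSR1, a scavenger receptor found chiefly on macrophages, was 5.6, 4.9, 4.7, 6.2 and 5.7 on the atretic arrays and averaged 3.68 ± 0.55 in small healthy follicles (SD, n = 10), a difference of 1.74 (SE 0.28, limma adjusted p 0.00161). For MSR1 the lowest atretic array was at 4.7 and the highest small healthy array at 4.4, whereas rounded replicate 1 reached 7.5 for CD36. How many of all probe sets separated in this way was not counted. MYLIP, the ubiquitin ligase that directs LDL receptors to degradation, rose by 0.86, and LRP10, a receptor of the LDL receptor family, by 0.66. Both CD36 and MSR1 are expressed by macrophages, whose markers rose in the same comparison, but CD36 is not particular to them. The part of macrophages in these differences was not tested.

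MSR1 was also the receptor to pass by size, at 5.0, 4.1, 4.7 and 5.3 on the large arrays, with a difference of 1.10 from small healthy follicles (SE 0.29, limma adjusted p 0.0494). It was joined by CAV1, the coat protein of caveolae, with a difference of 0.70 (SE 0.17, limma adjusted p 0.0363). The study's own list from these arrays also holds CAV1, but through another probe set and with a larger fold change. NR1H3, the oxysterol receptor LXR alpha, fell by 0.38 (SE 0.08, limma adjusted p 0.0216). It was 5.0, 4.6, 4.9 and 4.9 on the large arrays and 5.1 to 5.4 on the small healthy ones. The groups came as close as 5.0 and 5.1, in values deposited with 1 decimal. These calls depended on the setting. Instead of 2 genes, 0 rose with the unmoderated test, with the replicate block, against rounded or columnar follicles alone, or without columnar replicate 1, 2, 3 or 4 or large replicate 4, 1 rose without rounded replicate 2, 3, 4 or 5, columnar replicate 5 or large replicate 1 or 2, and 4 rose without rounded replicate 1. Instead of 1, 0 fell against either small group alone and without large replicate 2 or large replicate 4. Without both large replicate 2 and columnar replicate 1, the arrays high in granulosa cell genes, 1 rose and 0 fell.

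Of 6 tested lipases and lipase cofactors 3 rose in atretic follicles and 1 fell, where 31.9% of all probe sets tested passed. LIPE, hormone-sensitive lipase, which releases cholesterol from stored esters in steroidogenic cells, was 4.4, 4.3, 5.0, 4.5 and 4.6 on the atretic arrays and 5.33 ± 0.30 in small healthy follicles (SD, n = 10), a fall by 0.77 (SE 0.15, limma adjusted p 0.00316). All atretic arrays but replicate 3 lay below every small healthy array. PNPLA2, adipose triglyceride lipase, rose by 0.41, its inhibitor G0S2 by 0.47 and LMF1, the factor that matures LPL in the endoplasmic reticulum, by 0.45 (limma adjusted p 0.0109, 0.0221 and 0.0481).

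Of 6 tested apolipoproteins and lipid transfer proteins 3 rose in atretic follicles and 0 fell, where 31.9% of all probe sets tested passed. APOD, a lipocalin carried on high density lipoprotein, ran from 10.4 to 11.8 on the 5 atretic arrays and was 9.81 ± 0.57 in small healthy follicles (SD, n = 10), a difference of 1.47 (SE 0.29, limma adjusted p 0.00315). CLU, the secreted chaperone clusterin, ran from 9.0 to 10.7 on the atretic arrays against 8.63 ± 0.40 (SD, n = 10), a difference of 1.05 (SE 0.25, limma adjusted p 0.00828). Atretic arrays were the highest for both genes, and the lowest atretic values lay within the small healthy range. PLTP, the phospholipid transfer protein, rose by 0.75.

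The counts of the next lists also stand beside the 31.9% of all probe sets tested that passed. Of 7 tested sterol transporters NPC2, which carries cholesterol out of lysosomes, rose in atretic follicles, by 0.74 (SE 0.14, limma adjusted p 0.00254). STARD5, a sterol-binding protein of the START family, differed by 0.21 without passing (limma adjusted p 0.0532). Of 4 genes of cholesteryl ester and lipid droplet storage PLIN2, the lipid droplet coat protein, rose by 0.76 (SE 0.20, limma adjusted p 0.0116), while PLIN3 differed by -0.34 without passing (limma adjusted p 0.197). Of 11 tested regulators that sense sterols and lipids 5 rose and 2 fell. INSIG1, which holds the sterol-sensing SREBP complex in the endoplasmic reticulum and is itself a target of SREBP, was 5.4, 4.3, 5.4, 4.8 and 4.1 on the atretic arrays and 4.7 to 7.2 on the 10 small healthy arrays. It fell by 1.20 (SE 0.36, limma adjusted p 0.0199). SREBF2, the SREBP of cholesterol synthesis, fell by 0.50 (limma adjusted p 0.0380). INSIG2 rose by 0.44, the escort protein SCAP by 0.40, the retinoid X receptors RXRA and RXRB by 0.57 and 0.27, and NR1H2, LXR beta, by 0.29.

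Of the 43 genes of these lists tested in atretic follicles, 5 passed with at least a 2-fold change, where 3.63% of the 15470 probe sets tested did. These were CD36, MSR1, APOD and CLU upwards and INSIG1 downwards. List genes were read through their brightest probe set, unlike the probe sets of that share. In the direct comparison with large follicles none of the 5 passed, the differences being 0.71 for CD36, 0.64 for MSR1, 1.26 for APOD, 0.86 for CLU and -1.25 for INSIG1, with limma adjusted p-values from 0.144 to 0.420.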

How the data were processed

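The deposited values were log2 signals that the authors made by robust multi-array averaging with quantile normalisation in Partek 6.5 and wrote with 1 decimal. Joint normalisation of the 19 arrays: not given in the sources used here. An array's precision is limited by the number of arrays. No array duplicated another. The members and gene lists were chosen with earlier results of these data known. Of 24127 probe sets, 13317 had 1 gene symbol in GEO's platform annotation, 86 several and 10724 none. Gene names are those of that annotation, a list gene with several probe sets was read through the brightest, and the LIPG probe set is the one the study's supplementary table of regulated probe sets names so.

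After leaving out 111 control probe sets and those not over 3 on 50% of the arrays of any follicle type in the fit, limma 3.58.1 (lmFit, eBayes; R 4.3.3) compared group means, with Benjamini-Hochberg adjustment. The test was tested on simulated data. Exact permutation tests over arrays were two-sided. Named were all members, the list genes that passed or, where fewer than 2 passed, the 2 with the smallest p, the markers that passed or define a cell type, and the 3 genes most like each member. Alternatives changed the filter, normalisation, test, groups in the fit, replicate block and arrays included.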

Additional observations from a re-analysis of the deposited data

Results flagged for a closer look

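In 5 of 40 groups of arrays tested, 1 array stood further from the others than Dixon's 95% critical value, and chance alone does so in about 1 group in 20. For LPL, rounded replicate 3 was at 8.9 while the other rounded arrays lay between 8.0 and 8.2. For SCARB1, rounded replicate 4 was at 9.9 against 8.5 to 8.9. The same array was at 4.6 for the brightest VLDLR probe set, against 4.1 to 4.2. On the second brightest VLDLR probe set, rounded replicate 1 was at 2.9 and the other 4 rounded arrays at 3.2. On the dimmest VLDLR probe set, rounded replicate 5 was at 0.8 and the other small healthy arrays at 0.9 to 1.0, steps no finer than the decimals of the deposited values.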

How the results depend on the processing

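In large against small healthy follicles, the 557 probe sets that passed became 304 with a detection level of 5, 339 with the methods' unmoderated test, 341 with the replicate block, 159 without the arrays high in granulosa cell genes, 18 with rounded follicles as the sole controls and 258 with columnar ones, and 154 to 982 on leaving out 1 array. The 110 with at least a 2-fold change became 71, 54, 59 without the granulosa-high arrays, 12 against rounded follicles and 54 to 161. The 2 pathway genes that rose became 1 with no filter, the higher detection level, median centring, repeated quantile normalisation or without the granulosa-high arrays, 0 with the unmoderated test, the replicate block, or against rounded or columnar follicles alone, and 0 to 4 on leaving out 1 array. The 1 that fell became 0 without the granulosa-high arrays and against either small group alone, and 0 to 1 on leaving out 1 array. Differences near 0 changed sign: SCARB1 became -0.02 with median centring, -0.01 with the replicate block, -0.09 against columnar follicles and -0.26 to 0.17 when 1 array was left out. VLDLR became 0.04 against columnar follicles and -0.12 to 0.05, LPL ranged from -0.28 to 0.02, the second VLDLR probe set from -0.12 to 0.08 and LIPG from -1.72 to -0.92.

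In atretic against small healthy follicles, the 4939 probe sets became 3162 with the higher detection level, where fewer were tested, 244 against rounded follicles, and 2978 to 5690 on leaving out 1 array. The 561 with at least a 2-fold change became 149 against rounded follicles and 444 to 703. The 17 pathway genes that rose became 2 against rounded follicles and 13 to 18, and the 3 that fell became 0 and 1 to 3. APOE was 1.14 against rounded follicles and 1.24 to 1.46 when 1 array was left out, LPL 0.24 to 0.54 and VLDLR 0.30 to 0.48. SCARB1 became 0.01 with repeated quantile normalisation, 0.08 against rounded follicles and -0.26 to 0.19. In atretic against large follicles, the count of 0 became 122 with all 4 groups in 1 fit and 0 to 125 when 1 array was left out, and that with at least a 2-fold change 43 and 0 to 92. SCARB1 became 0.17 with the replicate block and -0.28 to 0.23, the second VLDLR probe set -0.17 to 0.03, and LIPG ranged from -0.21 to 0.59. Between rounded and columnar follicles, LPL ranged from -0.21 to 0.01, SCARB1 from -0.46 to 0.02, the second VLDLR probe set from -0.06 to 0.04 and LIPG from -0.22 to 0.18. The cause of these changes was not tested.

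Replicate numbers are shared by the groups. Of 27 pairs with the same number, 10 had a correlation of deviations over 0.1, and the 27 values ran from -0.34 to 0.57. Pairs with different numbers were not set beside them, so whether the numbers pair the arrays was not tested. With the replicate block the APOE difference between atretic and small healthy follicles was 1.35 (limma adjusted p 0.00500). Few arrays per group and signals near or below the detection level, as for 3 of the VLDLR probe sets, limit what can be detected.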
